A study of Mus musculus with 45 samples.

Results

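Cxcl12, Cxcl14, Cx3cl1 and Cxcl16 are 4 mouse chemokine genes counted among the homeostatic chemokines, which many tissues make without any inflammatory stimulus. The rows were taken by Ensembl identifier through the mouse gene symbol, and 4 of the 37991 genes in the deposited count table were members. All 4 were followed through 45 RNA-seq libraries of primary mouse embryonic fibroblasts (MEFs), cells grown out of embryos, of strain C57BL/6. The cells were either WT (15 libraries) or p53KO, that is, deficient in the p53 tumour suppressor (30 libraries, from 2 biological replicates called KO-1 and KO-2). Before stimulation every culture spent a night in medium with 0.5% bovine calf serum. IL-1b or TNF, each at 10 ng/ml, or LPS at 100 ng/ml was then added, and RNA was taken at 0, 0.5, 1, 3 and 8 h. All 3 agents activate NF-kB. Each stimulus had 0 h libraries of its own. Every genotype, stimulus and time therefore had 1 WT library and 2 p53KO libraries. WT values carry no replicate, and p53KO values are means or pairs over n = 2. The labels do not say whether KO-1 and KO-2 came from separate embryos, so the p-values measure the spread between these libraries. The study used p53-deficient cells because they live longer in culture, and compared them with WT cells as a control experiment on inducible inflammatory genes.

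Chemokines are small secreted proteins that steer cells carrying the matching receptor. Cxcl12 is a stromal product that holds CXCR4-bearing blood-forming cells and lymphocytes in place, and ACKR3 is its scavenging receptor. Cx3cl1 (fractalkine) and Cxcl16 differ from all other chemokines in being made as membrane-anchored proteins on a mucin stalk, from which the proteases ADAM10 and ADAM17 release them. Their receptors are CX3CR1, found on monocytes and macrophages, and CXCR6, found on T and NK cells. Cxcl14 is a conserved chemokine of epithelium and stroma whose receptor is less settled.

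On the mm9 build used by the deposited table, Cxcl12 (ENSMUSG00000061353) lies on chromosome 6 from 117118553 to 117131385 on the plus strand. Cxcl14 (ENSMUSG00000021508) lies on chromosome 13 from 56390008 to 56397912 on the minus strand, and Cx3cl1 (ENSMUSG00000031778) on chromosome 8 from 97295909 to 97306323 on the plus strand. Cxcl16 (ENSMUSG00000018920) lies on chromosome 11 from 70267485 to 70273486 on the minus strand. It shares 552 bp with Zmynd15 on the opposite strand, and whether the counting used strand is not given in the sources used here. Zmynd15 had 469 counts over all libraries against 8945 for Cxcl16. The other 3 genes overlapped no gene of the table.

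The promoters of Cx3cl1 and Cxcl12 are shown because these genes moved in opposite directions after the same stimuli. RefSeq promoter windows (GRCm38.p6, a later build than that of the counts) were matched for 3 of the 4 members, Cxcl12, Cxcl14 and Cx3cl1. The 250 bases before the start site of Cx3cl1 (chr8:94771930-94772179, plus strand) and of Cxcl12 (chr6:117168285-117168534, plus strand) are printed, with matches to a GC box (GGGCGG, either strand) or a TATA box (TATAAA, either strand) in capitals.
Cx3cl1: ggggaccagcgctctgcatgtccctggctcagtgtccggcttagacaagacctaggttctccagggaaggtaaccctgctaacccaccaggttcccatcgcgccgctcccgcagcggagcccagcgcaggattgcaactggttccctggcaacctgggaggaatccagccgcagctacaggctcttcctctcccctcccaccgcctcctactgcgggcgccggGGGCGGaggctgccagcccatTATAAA
Cxcl12: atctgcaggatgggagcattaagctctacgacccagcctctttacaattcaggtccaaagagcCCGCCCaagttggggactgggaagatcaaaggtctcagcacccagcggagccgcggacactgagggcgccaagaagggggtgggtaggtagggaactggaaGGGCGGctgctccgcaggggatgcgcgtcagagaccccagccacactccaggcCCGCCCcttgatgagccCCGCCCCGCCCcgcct
Cx3cl1 held 1 GC box and, in the last 6 bases before the start site, 1 match to the TATA box letters. Whether that match acts as a TATA box was not tested. Cxcl12 held 5 GC boxes, of which the pair nearest the start overlap, and no TATA box. GC content was 64.8% in the Cx3cl1 stretch and 64.4% in that of Cxcl12. Of 32851 windows of the same 300 bases (250 before and 50 after the start), 35.7% held a GC box and 13.6% a TATA box. Neither promoter held the NF-kB consensus (8.46% of windows), the interferon-stimulated response element (3.44%), the GAS element (TTCNNNGAA, 8.30%) or the AP-1 site (TGANTCA, 7.81%). These searches covered both strands of the 300 bases, and no match says only that the letters are not in this window.

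Counts per library assigned to genes ranged from 5619870 to 15355994 (median 9347770). Levels are given in CPM, the count scaled to library size after TMM normalisation. Trp53 stood at 158 to 293 CPM in WT and at 50.9 to 86.6 CPM in the p53KO libraries, so the groups did not overlap. The 12 fibroblast markers summed to 33232 to 40799 CPM in WT and to 32816 to 42744 in p53KO. The largest parts were Col1a1, Fn1 and Col1a2 (medians 10539, 8056 and 7787 CPM), while others such as Lum were far lower (31.0 CPM). Single markers differed between the genotypes in both directions. S100a4 stood at 530 CPM in WT and 54.0 in p53KO over all libraries, and Col3a1 at 2481 and 3186. Macrophage markers were present as well, at 430 to 663 CPM summed in WT and 324 to 536 in p53KO, although Cd163 was at 0 in 37 libraries. Libraries differed in the trend of level on transcript length, with rho from -0.60 to 0.404 across 9561 genes, which are not independent replicates. The lowest were both p53KO libraries of IL-1b at 0.5 h (-0.42 and -0.60) and WT at 3 h of IL-1b (-0.49). The highest were KO-1 at 0 and 8 h of TNF (0.404 and 0.369) and WT at 0.5 h of TNF (0.350).

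Expressed per kilobase of exon, which lets genes be compared, Cxcl12 had by far the highest 0 h level of the 4, at 79.1 CPM per kb in p53KO and 48.3 in WT. Cxcl14 followed at 12.7 CPM per kb in p53KO and 19.0 in WT. Cx3cl1 stood at 6.57 CPM per kb in p53KO and 12.9 in WT, and Cxcl16 at 2.12 and 2.82. Unstimulated MEFs thus expressed all 4 genes, in the same order in both genotypes. Cx3cl1 and Cxcl16, the membrane-anchored pair with the lowest starting levels, were the ones that rose after stimulation. Cxcl12 fell, and no change of Cxcl14 was called in the main fit, which has no term for KO-1 and KO-2. With such a term its falls at 8 h of IL-1b and LPS were called (edgeR adjusted p = 0.00929 and 0.0215).

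**Figure D1:**
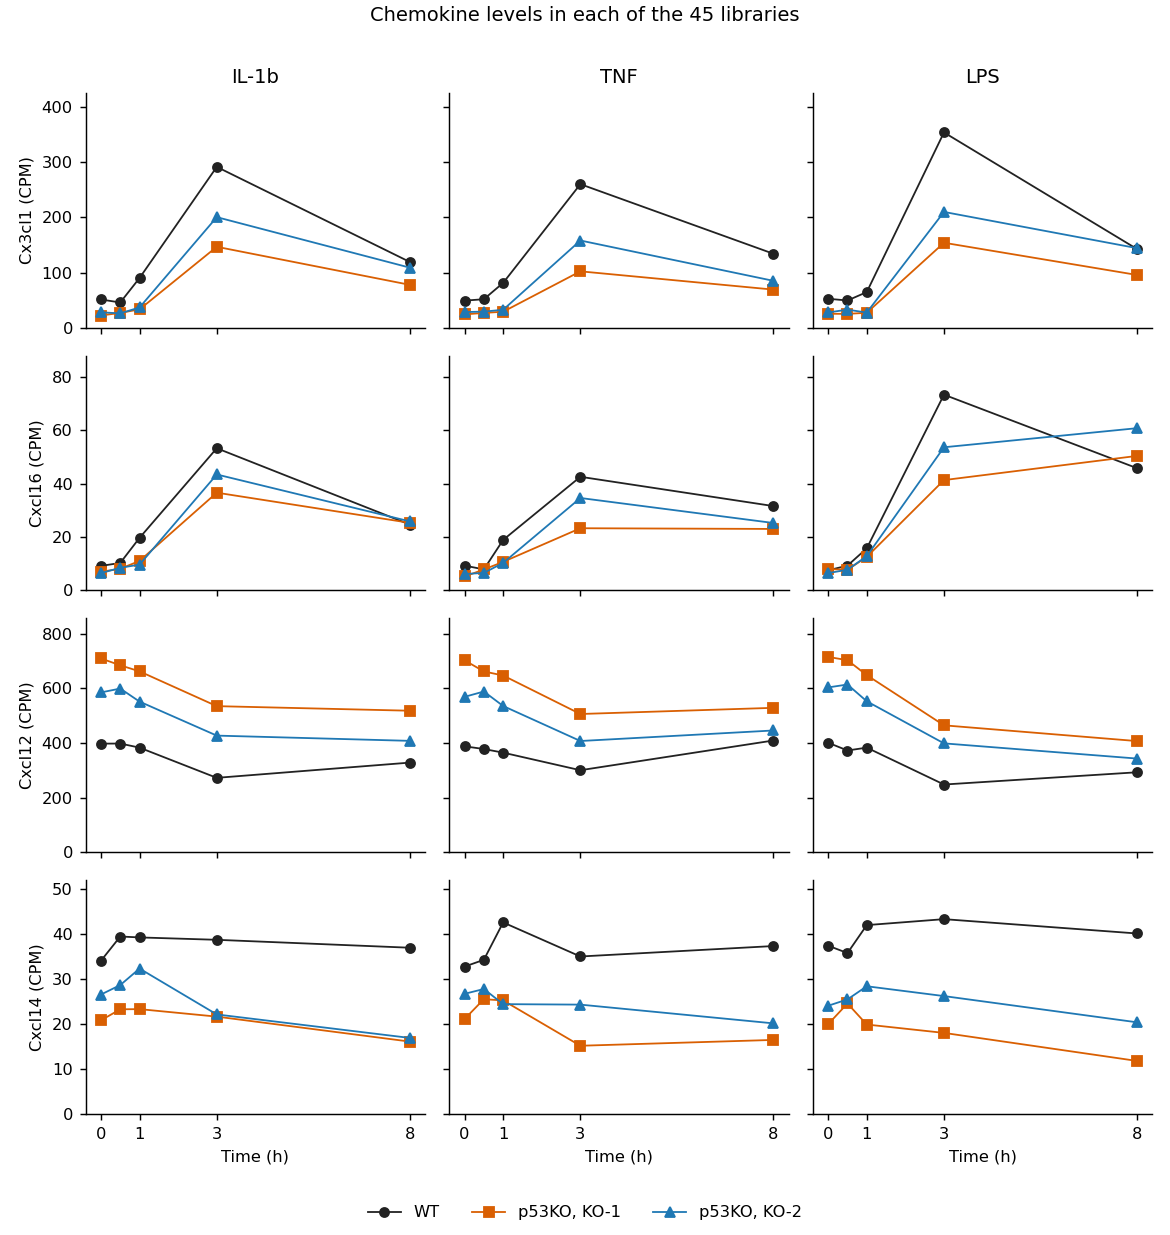
Level of each chemokine (CPM, y axis from 0) against time after stimulation (h, x axis), with 1 point per library and columns for IL-1b, TNF and LPS. WT is in black, KO-1 in orange and KO-2 in blue. Cx3cl1 reached its highest value at 3 h in every series (354 CPM in WT after LPS), while Cxcl12 stayed higher in KO-1 and KO-2 than in WT in all 15 conditions.

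Changes in p53KO cells were tested against 0 h of the same stimulus by edgeR's quasi-likelihood test, with the Benjamini-Hochberg adjusted p taken over 13851 genes and a call at 0.05. Of 48 member tests, 14 were called higher and 5 lower. None of 12 was called at 0.5 h by edgeR, 0 had an unadjusted p under 0.05 and 0 was called by DESeq2, where 7.39% of genes were called for IL-1b, 0.751% for TNF and 0.527% for LPS. Calls at 1 h were 2 of 12, against 5.94% of genes with IL-1b, 5.85% with TNF and 5.31% with LPS. Calls at 3 h were 9 of 12, where 42.7, 36 and 44.1% of all genes were called with IL-1b, TNF and LPS. Calls at 8 h were 8 of 12, against a background of 24.4, 28.6 and 34.2% in the same order. Since a large share of all genes moved at 3 and 8 h, the members' sizes of change say more than their number of calls.

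Cx3cl1, the ligand of CX3CR1, rose between 1 and 3 h and declined by 8 h under all 3 stimuli. After IL-1b it stood in KO-1 at 22.0, 26.9, 33.2, 147 and 77.7 CPM and in KO-2 at 27.8, 25.9, 36.7, 200.4 and 109 CPM, at 0, 0.5, 1, 3 and 8 h. The WT series ran from 51.1 through 45.7, 90.1 and 291 to 119 CPM. Both p53KO libraries at 3 and 8 h lay above both at 0 h, and the highest value in each line was that of 3 h. The 3 h level was 6.96 times that at 0 h (log2 2.80, SE 0.22, edgeR adjusted p = 1.42e-10), and the 8 h level 3.74 times (log2 1.90, SE 0.22, edgeR adjusted p = 3.91e-07).

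TNF gave Cx3cl1 values of 24.1, 26.8, 28.9, 102 and 69.0 CPM in KO-1 and of 28.3, 29.1, 32.5, 158 and 84.9 CPM in KO-2. In WT they were 49.0, 51.6, 81.2, 260.1 and 134 CPM. Here too the groups at 3 and 8 h did not overlap that at 0 h. The change was 4.94-fold at 3 h (log2 2.30, SE 0.23, edgeR adjusted p = 1.44e-08) and 2.90-fold at 8 h (log2 1.53, SE 0.23, edgeR adjusted p = 2.01e-05).

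With LPS, the Cx3cl1 levels were 25.2, 25.0, 27.0, 154 and 95.5 CPM in KO-1 and 27.6, 32.7, 27.4, 209.8 and 144 CPM in KO-2. The WT series was 52.4, 49.3, 64.5, 354 and 143 CPM, its 3 h value the highest of Cx3cl1 in any library. No separation was seen at 0.5 or 1 h in p53KO. Expression rose 6.88-fold by 3 h (log2 2.78, SE 0.22, edgeR adjusted p = 9.22e-11) and stood 4.54-fold higher at 8 h (log2 2.18, SE 0.22, edgeR adjusted p = 9.97e-09).

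At 1 h Cx3cl1 had not passed the test in p53KO after any stimulus (log2 0.04 to 0.48, adjusted p 0.292 to 0.964). The single WT libraries at 1 h were 0.82, 0.73 and 0.30 above 0 h on the log2 scale after IL-1b, TNF and LPS. The step from 1 to 3 h was called higher for each stimulus (4.97-, 4.23- and 6.69-fold for IL-1b, TNF and LPS), where 40.8, 31.2 and 36.9% of genes were called. Between 3 and 8 h the p53KO level fell by 0.90 after IL-1b, by 0.77 after TNF and by 0.60 after LPS on the log2 scale (edgeR adjusted p = 0.000758, 0.0065 and 0.0150; 35.5, 25 and 38.2% of genes called). The decline after TNF was lost without the KO-1 library at 8 h (adjusted p = 0.126) or the KO-2 library at 3 h (0.188). For LPS, the same held without KO-1 at 8 h (0.240) or KO-2 at 3 h (0.255), and DESeq2 gave an adjusted p of 0.0553. KO-2 stood above KO-1 for Cx3cl1 in 14 of 15 conditions. Leaving such a library out left the lines unevenly matched, so the line difference entered the change. By line the change was -0.56 in KO-1 and -0.89 in KO-2 after TNF, and -0.69 and -0.54 after LPS. With a term for KO-1 and KO-2 neither call was lost.

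Cxcl16, the membrane-anchored ligand of CXCR6, rose in the same window and was the only member called before 3 h. Its IL-1b series read 6.82, 7.95, 10.9, 36.6 and 25.2 CPM in KO-1 and 6.32, 8.32, 9.51, 43.4 and 25.8 CPM in KO-2. The WT libraries were at 9.03, 10.1, 19.6, 53.3 and 24.6 CPM. Every p53KO library from 0.5 h on exceeded both at 0 h. The 3 h level was 6.07 times that at 0 h (log2 2.60, SE 0.17, edgeR adjusted p = 4.68e-12) and the 8 h level 3.87 times (log2 1.95, SE 0.18, edgeR adjusted p = 6.42e-09).

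After TNF, Cxcl16 measured 5.04, 7.68, 10.5, 23.2 and 22.9 CPM in KO-1 and 5.99, 6.39, 10.2, 34.6 and 25.2 CPM in KO-2. WT cells gave 9.15, 7.71, 18.8, 42.6 and 31.5 CPM. KO-1 held its 3 h level at 8 h, whereas KO-2 and WT were lower at 8 h than at 3 h. The increase was 5.18-fold at 3 h (log2 2.37, SE 0.20, edgeR adjusted p = 7.10e-10) and 4.30-fold at 8 h (log2 2.10, SE 0.20, edgeR adjusted p = 1.52e-08).

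LPS took Cxcl16 from 7.86 through 7.56, 12.4 and 41.3 to 50.4 CPM in KO-1, and from 6.32 through 7.59, 12.7 and 53.6 to 60.8 CPM in KO-2. In WT it went from 7.38 through 9.13, 15.6 and 73.4 to 45.8 CPM. Both p53KO lines were thus highest at 8 h, and the WT line at 3 h. Expression was 6.72-fold higher at 3 h (log2 2.75, SE 0.17, edgeR adjusted p = 6.80e-13) and 7.88-fold higher at 8 h (log2 2.98, SE 0.16, edgeR adjusted p = 7.64e-14).

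Already at 1 h Cxcl16 was 1.87-fold higher after TNF (log2 0.91, SE 0.22, edgeR adjusted p = 0.0108) and 1.78-fold higher after LPS (log2 0.83, SE 0.20, edgeR adjusted p = 0.0102). The IL-1b value was 1.56-fold (log2 0.64, SE 0.20, adjusted p = 0.0516) and was not called. Leaving out the KO-1 library at 0 h or at 1 h ended the TNF call (adjusted p = 0.130 and 0.0712). That 0 h library had the highest length trend, and with length and GC trends removed the call held (edgeR adjusted p = 0.0133). The LPS call was lost without KO-1 at 1 h (0.0701), KO-2 at 0 h (0.158) or KO-2 at 1 h (0.0794). After TNF and after LPS, both p53KO libraries at 1 h lay above both at 0 h. By line the change was 1.03 in KO-1 and 0.74 in KO-2 after TNF, and 0.65 and 0.98 after LPS. With a term for KO-1 and KO-2 neither call was lost. The 3 WT libraries at 1 h were 1.02 to 1.10 above their 0 h libraries on the log2 scale.

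From 3 to 8 h Cxcl16 fell by 0.65 on the log2 scale after IL-1b (SE 0.14, edgeR adjusted p = 0.000939). Its later change was -0.27 after TNF (95% interval -0.58 to 0.05) and 0.23 after LPS (-0.04 to 0.50), and neither was called.

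The summed macrophage markers, genes of cells known to make Cxcl16, stood in p53KO at 343 to 427 CPM at 0 h and at 403 to 536 CPM at 3 h. In WT they stood at 450.4 to 472 CPM at 0 h and at 629 to 663 CPM at 3 h. At 3 h 42.7, 36 and 44.1% of all genes were called after IL-1b, TNF and LPS. Of 11 tested markers, 1, 1 and 2 were called higher in the same order and 1 lower each time. Their part in the rise of the 2 chemokines was not tested. In bulk RNA, more cells of a type and more RNA per cell cannot be told apart.

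**Figure D2:**
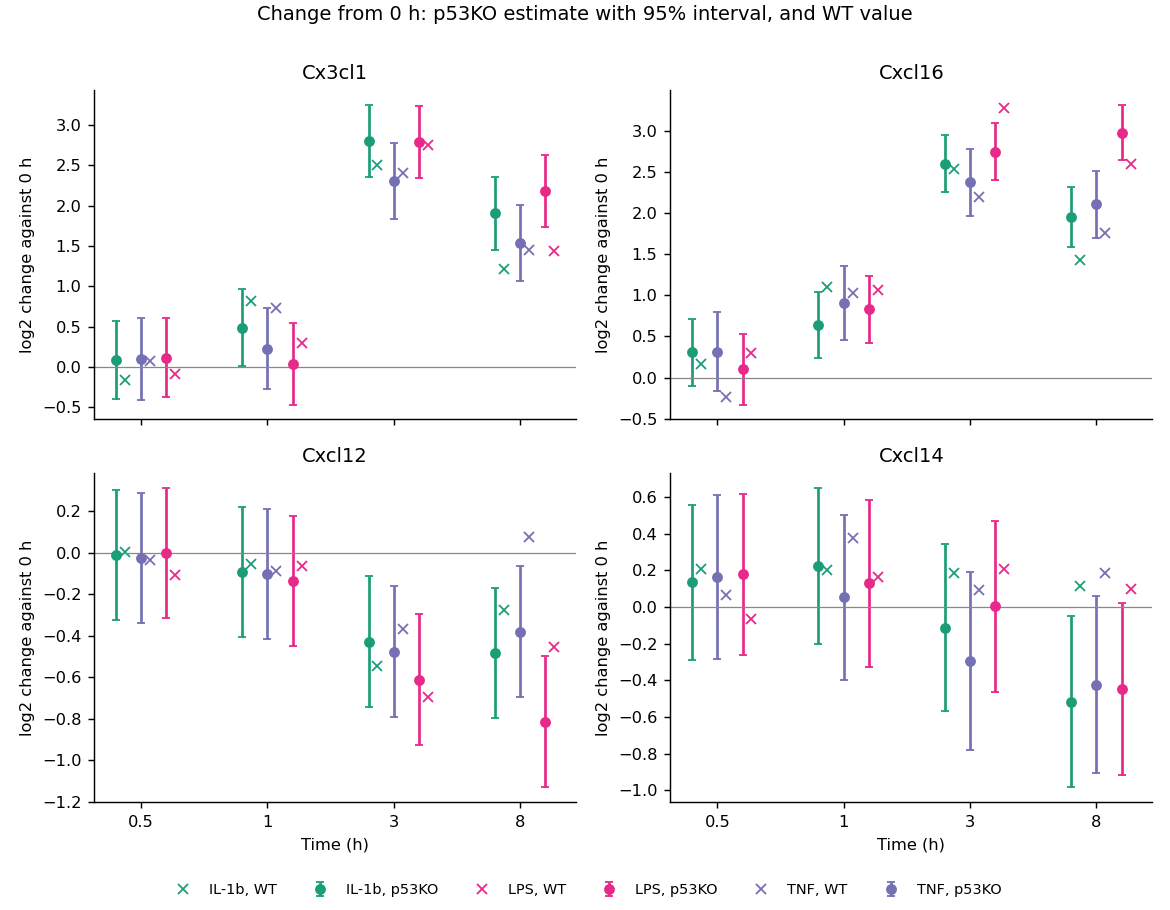
Change from 0 h of the same stimulus (log2, y axis) by time (h, x axis). Circles are the p53KO estimates with 95% intervals (2 libraries against 2) and crosses the single WT values, coloured by stimulus. At 3 h Cx3cl1 and Cxcl16 lay between 2.30 and 2.80 in p53KO, Cxcl12 between -0.61 and -0.43, and the intervals of Cxcl14 include 0.

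Cxcl12, the stromal retention factor and the most abundant of the 4, fell after each stimulus. After IL-1b it went from 709 through 684, 662 and 535 to 518 CPM in KO-1 and from 585 through 599, 551 and 427 to 407 CPM in KO-2. WT levels were 397, 398, 383, 272 and 328 CPM. Each p53KO library at 3 and 8 h lay below both at 0 h. The fall was to 0.743 times the 0 h level at 3 h (log2 -0.43, SE 0.15, edgeR adjusted p = 0.0261) and to 0.715 times at 8 h (log2 -0.48, SE 0.15, edgeR adjusted p = 0.0220).

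The TNF series of Cxcl12 read 702, 662, 647, 506 and 528 CPM in KO-1 and 569, 588, 535, 407 and 445 CPM in KO-2. WT cells were at 387, 378, 364, 299.95 and 409 CPM and so ended at 8 h above their 0 h value. Both p53KO lines remained below theirs, with no overlap between 0 h and 3 or 8 h. The change to 0.719 times at 3 h passed the test (log2 -0.48, SE 0.15, edgeR adjusted p = 0.0172), and that to 0.768 times at 8 h did not (log2 -0.38, SE 0.15, adjusted p = 0.0643).

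With LPS, Cxcl12 went from 715 through 703, 648 and 464 to 407 CPM in KO-1 and from 603 through 614, 552 and 398 to 343 CPM in KO-2. WT went from 401 through 372, 383 and 248 to 292 CPM. The p53KO lines were lowest at 8 h and WT at 3 h. The level was 0.655 times that at 0 h after 3 h (log2 -0.61, SE 0.15, edgeR adjusted p = 0.00214) and 0.569 times after 8 h (log2 -0.81, SE 0.15, edgeR adjusted p = 0.000167). The step from 1 to 3 h alone was -0.48 (edgeR adjusted p = 0.0163), and its call was lost without KO-1 at 1 h (0.155) or KO-2 at 3 h (0.192).

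KO-1 stood above KO-2 for Cxcl12 in 15 of 15 conditions, and each line on its own gave nearly the same change. After LPS at 8 h it was -0.81 in KO-1 and -0.82 in KO-2, and after IL-1b at 3 h -0.41 and -0.45. With KO-1 and KO-2 as a replicate block, no Cxcl12 call against 0 h was lost. The TNF fall at 8 h was then called as well (-0.38, edgeR adjusted p = 9.31e-06). In the main fit, which has no such block, the calls nevertheless depended on single libraries. Leaving a library out there left the lines unevenly matched between the times, so the line difference entered the change. Such runs cannot show whether the fall itself rests on that library. The IL-1b call at 3 h was lost without KO-1 at 0 h (adjusted p = 0.248) or KO-2 at 3 h (0.290), and by DESeq2 (0.0648). At 8 h it was lost without KO-1 at 0 h (0.225) or KO-2 at 8 h (0.240), and by DESeq2 (0.0539). The TNF call at 3 h was lost without KO-1 at 0 h (0.205) or KO-2 at 3 h (0.188), and held with length and GC trends removed (0.0218). The LPS call at 3 h was lost without KO-2 at 3 h (0.0513). The LPS fall at 8 h held in each alternative run (adjusted p at most 0.00752).

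Cxcl14, the epithelial and stromal chemokine, had no called change in 12 edgeR tests (log2 -0.52 to 0.22, adjusted p from 0.101), 1 of which had an unadjusted p under 0.05, and 0 of the 12 was called by DESeq2. At 0 h its p53KO libraries ranged from 20.0 to 26.8 CPM and its WT libraries from 32.8 to 37.4. At 8 h KO-1 and KO-2 stood at 16.2 and 17.0 CPM after IL-1b, at 16.5 and 20.2 after TNF, and at 11.9 and 20.4 after LPS. All 6 of these lay below the libraries of their own line at 0 h, while WT was at 37.0, 37.4 and 40.2 CPM, each above the WT library at 0 h of the same stimulus. The 8 h estimate in p53KO was -0.52 after IL-1b (95% interval -0.98 to -0.05, adjusted p = 0.101), -0.42 after TNF (-0.91 to 0.06, 0.188) and -0.45 after LPS (-0.92 to 0.02, 0.138). The WT values were 0.12, 0.19 and 0.10. With the numbers KO-1 and KO-2 as a replicate block, the 8 h changes after IL-1b and LPS were called (edgeR adjusted p = 0.00929 and 0.0215). At 0.5, 1 and 3 h the p53KO libraries ranged from 15.2 to 32.4 CPM and those of WT from 34.3 to 43.3 CPM, so the genotypes stayed apart.

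In the order of the 15 p53KO conditions by mean level, Cx3cl1 was highest after LPS at 3 h (182 ± 39.5 CPM, SD, n = 2) and lowest at 0 h of IL-1b (24.9 ± 4.09 CPM, SD, n = 2). Cxcl16 ran from 55.6 ± 7.37 CPM (SD, n = 2) after LPS at 8 h down to 5.51 ± 0.665 CPM at 0 h of TNF. Neighbours in the order had overlapping ranges in 11 of 14 pairs for Cx3cl1 and in 7 of 14 for Cxcl16. For Cxcl12 they overlapped in 13 of 14, between 659 ± 79.0 CPM (SD, n = 2) at 0 h of LPS and 375 ± 45.3 CPM after LPS at 8 h. The one gap in that order lay below TNF at 1 h (535 to 647 CPM), and Cxcl14 had none (14 of 14 overlapping).

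Stimuli were compared by the difference between their changes from 0 h in p53KO. Of 48 such tests 1 was called, Cxcl16 at 8 h, whose change was larger after LPS than after IL-1b by 1.02 on the log2 scale (SE 0.25, edgeR adjusted p = 0.0147; 3.92% of genes called). KO-1 and KO-2 had 50.4 and 60.8 CPM after LPS at 8 h against 25.2 and 25.8 after IL-1b, with no overlap. The call was lost without KO-1 at 0 h of IL-1b (adjusted p = 0.112), KO-2 at 0 h of LPS (0.129) or KO-2 at 8 h of LPS (0.0682). Against TNF the difference at 8 h was 0.87 (95% interval 0.30 to 1.44, adjusted p = 0.0803; 4.4% of genes called). For Cx3cl1 the 8 h change with LPS exceeded that with TNF by 0.65 (-0.01 to 1.30, adjusted p = 0.341). For Cxcl12 it was lower by LPS than by TNF, at -0.43 (-0.88 to 0.01, adjusted p = 0.351). Elsewhere the background was low, at 0.0578, 0.13 and 1.88% of genes for LPS against TNF at 0.5, 1 and 3 h and 0.397, 0.347 and 1.61% for LPS against IL-1b. For IL-1b against TNF it was 0.469, 0.00722, 0.116 and 0.505% at the 4 times. The intervals leave room for differences of this size, so that the stimuli acted alike on these genes was not shown.

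The control question of the study, whether p53KO cells respond as WT cells do, was put to each gene as the difference between the genotypes' changes. None of the 48 tests was called by edgeR, and 0 of the 48 was by DESeq2. Of all genes, 0, 0.0866, 3.37 and 0.0144% were called for IL-1b at 0.5, 1, 3 and 8 h, 0, 0.0722, 0.217 and 0.0505% for TNF, and 0, 0.137, 0.83 and 0.931% for LPS. At an unadjusted p under 0.05, 0 of the 48 passed in edgeR. Over the 4 times jointly, none of 12 passed the adjusted test and 2 had an unadjusted p under 0.05, while DESeq2 was not run for it (genes called: 5.74% for IL-1b, 0.462% for TNF and 2.66% for LPS). The lowest joint value was that of Cxcl16 after LPS (F = 4.15, edgeR adjusted p = 0.187). The answer changed with the numbers KO-1 and KO-2 as a replicate block, where 5 of the 12 joint tests passed. They were Cx3cl1 after IL-1b and LPS (edgeR adjusted p = 0.00889 and 0.0140), Cxcl12 after TNF and LPS (0.0231 and 0.0151) and Cxcl16 after LPS (0.04997). WT is 1 library per condition, taken to vary like p53KO, so the intervals are wide. The Cx3cl1 change at 8 h of LPS was 2.18 in p53KO and 1.44 in WT, a difference of 0.74 (95% interval -0.01 to 1.49). For Cxcl14 at 8 h of IL-1b it was -0.52 and 0.12, a difference of -0.63 (-1.38 to 0.12).

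Levels, in contrast, differed between the lines for all 4 genes. Counts were summed over the 15 libraries of each line and 1 WT line was compared with 2 p53KO lines over 12918 genes, of which 40.4% were called. Cxcl12 totalled 353 CPM in WT, 613 in KO-1 and 520.1 in KO-2, 1.60-fold higher in p53KO (log2 0.68, SE 0.10, edgeR adjusted p = 0.00144). Cx3cl1 stood at 126 CPM in WT, 55.6 in KO-1 and 70.4 in KO-2, 0.500 times the WT level (log2 -1.001, SE 0.11, edgeR adjusted p = 0.000539). The 3 genes other than Cxcl12 were all lower in both p53KO lines.

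Cxcl14 was at 38.0 CPM in WT, 20.4 in KO-1 and 25.4 in KO-2 (log2 -0.73, SE 0.11, edgeR adjusted p = 0.0019). Cxcl16 was at 25.6 CPM in WT, 17.6 in KO-1 and 19.2 in KO-2 (log2 -0.48, SE 0.07, edgeR adjusted p = 0.0019). In unstimulated cells alone, Cx3cl1 had 49.0 to 52.4 CPM in the 3 WT libraries and 22.0 to 28.3 CPM in the 6 of p53KO, and Cxcl12 387 to 401 CPM against 569 to 715. Cxcl16 overlapped there, with 7.38 to 9.15 CPM in WT and 5.04 to 7.86 in p53KO, and its 0 h difference was not called (log2 -0.39, adjusted p = 0.0895). By condition, WT lay above both p53KO libraries in 15 of 15 for Cxcl14, 14 of 15 for Cx3cl1 and 12 of 15 for Cxcl16, and below both in 15 of 15 for Cxcl12.

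The genotype test has 1 residual degree of freedom and 1 WT line, so genotype and line cannot be told apart. KO-2 exceeded KO-1 in 14 of 15 conditions for Cx3cl1 and for Cxcl14, so the p53KO lines also differed from each other. The summed epithelial markers were 28.6 to 59.3 CPM in p53KO and 6.90 to 15.9 in WT, while endothelial markers overlapped (15.6 to 40.3 and 15.1 to 33.0 CPM). The largest parts of the epithelial sum were Krt18 (22.7 CPM in p53KO and 5.19 in WT over all libraries) and Krt8 (7.59 and 2.14). Epcam (0.289 and 0.259) and Cdh1 (0.530 and 0.602) were scarce in both genotypes. The part of either marker set in the level differences was not tested.

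**Figure D3:**
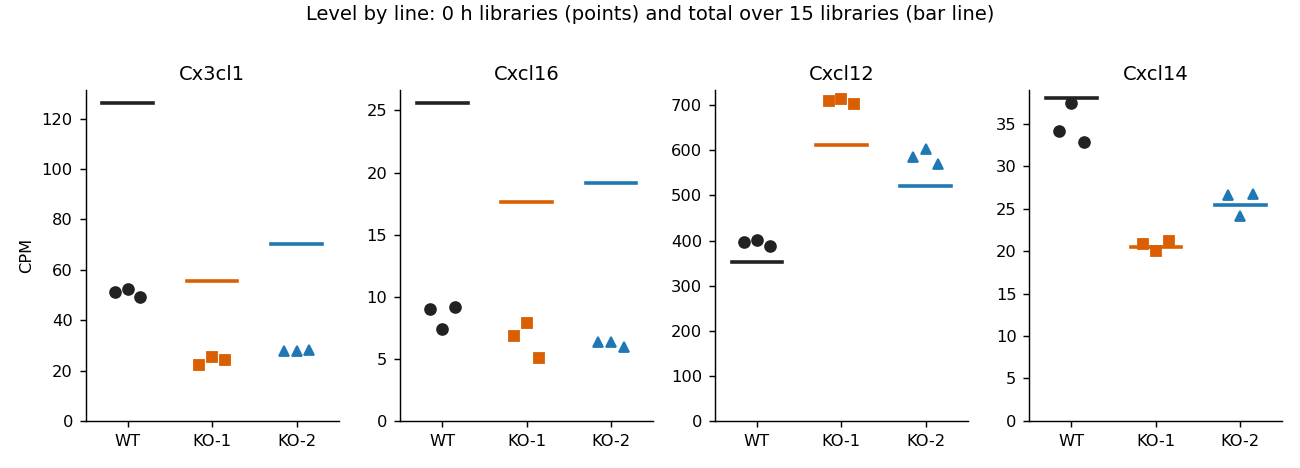
Level of each chemokine (CPM, y axis from 0) in WT, KO-1 and KO-2 (x axis). Points are the 3 libraries at 0 h and the horizontal line is the level in counts summed over 15 libraries. Cxcl12 is higher in both p53KO lines (613 and 520.1 CPM against 353), and the other 3 genes are lower.

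The receptors were measured in the same libraries. Of 4, Cx3cr1 and Ackr3 were called lower at 3 or 8 h and none was called higher. Each contrast at these times had 1 or 2 of the 4 called, beside 24.4 to 44.1% of all genes in either direction. Cx3cr1, the receptor of Cx3cl1, was called lower at 8 h of each stimulus, and at 3 h of IL-1b and LPS but not of TNF. After LPS it went from 19.6 CPM at 0 h to 5.64 at 3 h and 3.99 at 8 h in KO-1, and from 22.3 to 8.17 and 5.74 in KO-2, while WT went from 17.6 to 4.74 and 1.59. The change was to 0.329 times at 3 h and to 0.233 times at 8 h (log2 -1.60 and -2.10, edgeR adjusted p = 2.19e-08 and 2.18e-10), and a first fall was called at 1 h (log2 -0.52, adjusted p = 0.0346).

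IL-1b lowered Cx3cr1 to 0.596 times at 3 h and 0.276 times at 8 h (log2 -0.75 and -1.86, edgeR adjusted p = 0.000223 and 5.32e-09). With TNF the 3 h value was -0.20 (adjusted p = 0.328) and the 8 h fall 0.609 times (log2 -0.72, edgeR adjusted p = 0.00146). Cx3cr1 is itself a macrophage gene. At 8 h of LPS, where 34.2% of all genes were called, 4 of 11 macrophage markers were called higher and 3 lower. The higher ones, named after their values were seen, were Fcgr1, Adgre1, Ptprc and Itgam (log2 0.82 to 1.92), and the lower ones Cd68, Mertk and C1qa (log2 -1.12 to -0.70). Their summed level was 388 to 525 CPM in p53KO at 8 h and 343 to 427 CPM at 0 h, and its largest single part at 0 h was Lyz2 (173 CPM). The part of these cells in the fall of Cx3cr1 was not tested.

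Ackr3, the scavenger of CXCL12, fell after TNF to 0.688 times at 3 h and 0.454 times at 8 h (log2 -0.54 and -1.14, edgeR adjusted p = 0.0155 and 3.38e-05). It stood at 18.2, 14.3 and 8.37 CPM in KO-1 and at 23.1, 14.2 and 11.3 CPM in KO-2, at 0, 3 and 8 h. WT was at 21.7, 25.4 and 15.9 CPM. IL-1b lowered it at 8 h (log2 -0.52, edgeR adjusted p = 0.0150), and after LPS it was at -0.10 and -0.05 at 3 and 8 h (adjusted p = 0.634 and 0.831). Over all libraries it was lower in p53KO than in WT (18.9 and 21.9 against 29.5 CPM, log2 -0.53, edgeR adjusted p = 0.00292).

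Cxcr4 and Cxcr6, the signalling receptors of Cxcl12 and Cxcl16, were scarce (0.183 to 3.30 and 0 to 3.20 CPM) and no change of either was called at 3 or 8 h. At that depth their intervals spanned from -2.08 to 1.07 for Cxcr4 and from -2.37 to 2.71 for Cxcr6 on the log2 scale.

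Among 9 proteases and their regulators that shed or trim these ligands, 4, 4 and 5 were called higher at 3 h after IL-1b, TNF and LPS, and none lower, shares near the 42.7, 36 and 44.1% called over all genes. At 8 h, 3 were higher each time, and 2, 1 and 1 lower, beside 24.4, 28.6 and 34.2%. Rhbdf2 and Rhbdf1 encode the iRhom partners that carry ADAM17 to the cell surface. Rhbdf2 rose 3.05-fold at 3 h and 3.95-fold at 8 h of LPS (log2 1.61 and 1.98, edgeR adjusted p = 2.70e-08 and 2.78e-10), from 8.81 to 26.0 and 32.9 CPM in KO-1 and from 9.78 to 30.9 and 40.7 in KO-2. Rhbdf1 rose 1.84-fold at 3 h of LPS (log2 0.88, edgeR adjusted p = 7.63e-07) and was not called at 8 h.

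Adam17 itself rose by little, 1.38-fold at 8 h of LPS (log2 0.46, edgeR adjusted p = 3.86e-05), 1.22-fold after IL-1b and 1.18-fold after TNF. Adam10 and Timp3 were named after their values were seen. Adam10 went from 203 to 164 CPM in KO-1 and from 188 to 166 in KO-2 by 8 h of IL-1b. Timp3, one of the regulators, went from 636 to 916 CPM in KO-1 and from 687 to 1054 in KO-2 by 3 h of IL-1b. The list holds proteases and regulators alike, and whether shedding changed was not tested. Mmp9, a gelatinase able to cut CXCL12, rose 11.4- to 12.4-fold at 8 h (log2 3.51 to 3.63). Dpp4, a peptidase that removes the first residues of CXCL12, was chosen after its values were seen. It totalled 1.05 CPM in WT and 4.44 and 5.24 CPM in KO-1 and KO-2 (log2 2.20, edgeR adjusted p = 0.000149).

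**Figure D4:**
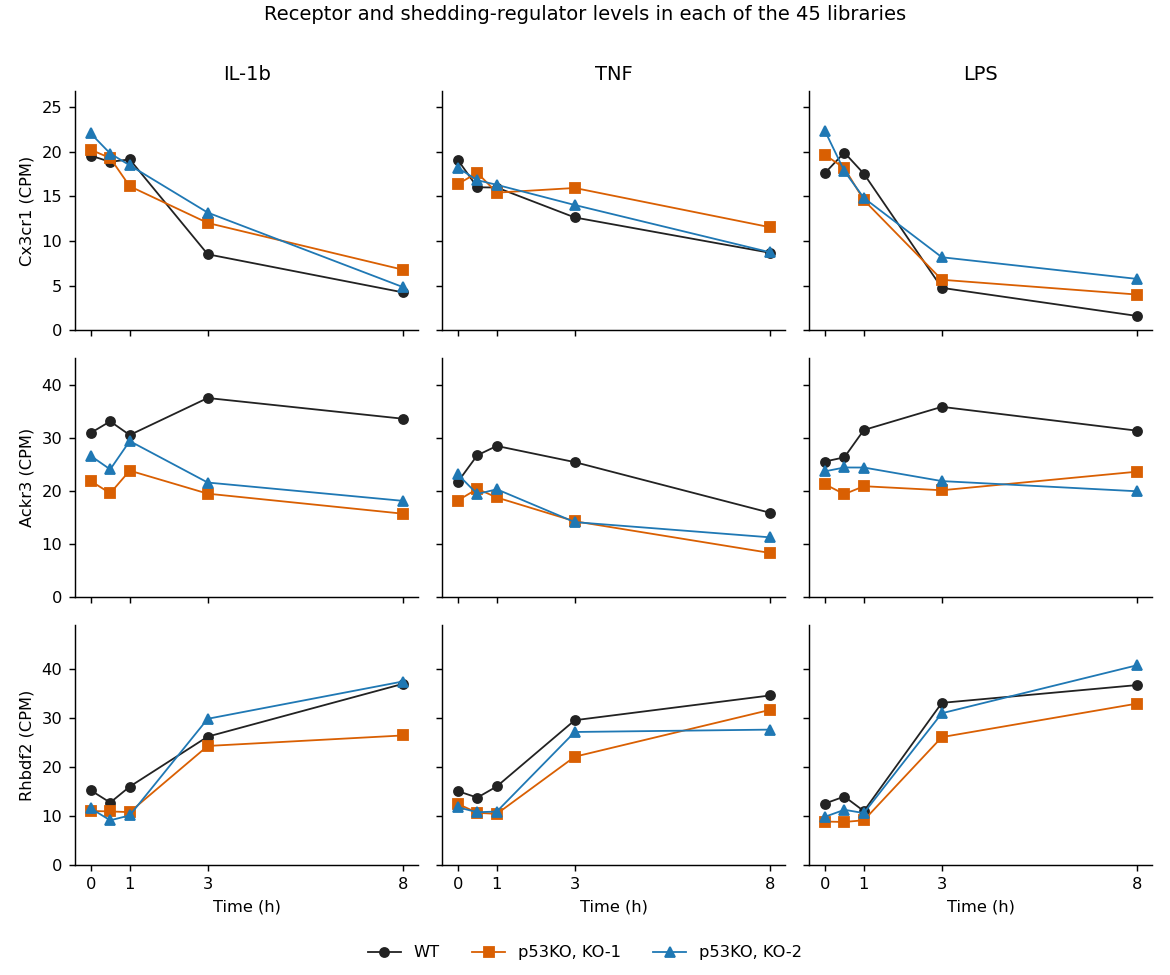
Level (CPM, y axis from 0) of the receptors Cx3cr1 and Ackr3 and of the shedding regulator Rhbdf2 against time (h, x axis), 1 point per library, in columns by stimulus. Cx3cr1 falls towards 8 h (to 3.99 and 5.74 CPM in p53KO after LPS), Ackr3 is lowest after TNF at 8 h (8.37 and 11.3 CPM), and Rhbdf2 rises in each series.

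Other homeostatic chemokines were nearly silent. Of 9 listed, 8 were in the table and 4 were expressed enough to be tested, none of them with a 0 h mean over 2.13 CPM. Ccl27a, a skin chemokine, was called lower at 8 h of IL-1b (log2 -1.49, SE 0.38, edgeR adjusted p = 0.0058). The inflammatory chemokines behaved as Cx3cl1 and Cxcl16 did in direction. Of 21 tested, 18, 16 and 19 were called higher at 3 h after IL-1b, TNF and LPS and 16, 16 and 18 at 8 h, with none lower. Their median change at 3 h was 2.44, 2.91 and 5.72 on the log2 scale, beside -0.02, -0.01 and -0.02 over all genes. Some of the 21 were almost absent from p53KO cells at 0 h, with means of 0 CPM for Ccl1 and Ccl22 and 0.016 CPM for Cxcl11. Such genes could be called only higher, so the lack of lower calls and the medians are partly set by the choice of genes tested. Ccl2, a monocyte attractant, rose by 5.63, 5.37 and 6.05.

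Genes whose levels ran most like each member were ranked by Pearson's r of log2 CPM over the 30 p53KO libraries among 11786 genes, as a description over libraries that share time courses. For Cx3cl1 they were Angptl4 (r = 0.977), Oaf (0.977) and Plpp3 (0.974), with r = 0.966, 0.947 and 0.926 over the 15 WT libraries. For Cxcl16 they were Timp1 (0.973), Neurl3 (0.969) and Cxcl3 (0.967), with 0.956, 0.820 and 0.877 in WT. Cxcl12 was most like Fblim1 (0.895), Ckap2l (0.894) and Gucy1b1 (0.892), of which Ckap2l had an r of 0.329 in WT against 0.728 and 0.858 for the other two. Cxcl14 was most like Col8a2 (0.872), Nkd1 (0.859) and Chrd (0.853), but in WT the r values were 0.165, -0.04 and 0.003.

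Among the members, Cx3cl1 and Cxcl16 had r = 0.949 over the p53KO and 0.965 over the WT libraries. Cxcl12 ran against both, at -0.88 and -0.87 in p53KO and -0.87 and -0.84 in WT. Cxcl14 had r = -0.44 with Cx3cl1 and -0.52 with Cxcl16 in p53KO, and 0.369 and 0.497 in WT, so its signs were not shared between the genotypes.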

How the data were processed

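The deposited table holds raw read counts per Ensembl gene on mm9, and per the submitters' processing notes the authors used STAR, featureCounts and DESeq. Versions, annotation and strand setting are not given in the sources used here, and per the labels' protocols the libraries were poly(A)-selected and paired-end. The 5 entries that name no gene (24.65% of counts) were left out. Symbols came from GENCODE M21, for 32919 of 37991 identifiers.

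The counts of 13851 genes that reached 1 CPM in 2 or more libraries were fitted together by edgeR 4.0.16 (quasi-likelihood, R 4.3.3), with TMM scaling and a mean for each of 30 groups (15 residual degrees of freedom, biological coefficient of variation 0.0679). Adjusted p-values are Benjamini-Hochberg over all genes within a contrast, called at 0.05. Genotype levels used counts summed per line (12918 genes). Per-line and WT changes are differences of log2 CPM with a prior count of 2. Levels per kb use the union of exons in GENCODE M21. DESeq2 1.42.0, other filters and scalings, a line term, offsets for length and GC, pooled 0 h libraries and each p53KO library left out were tried as alternatives. The scripts were tested on simulated data.

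The members and gene lists were chosen with earlier results of these data known. Named genes are the members, their receptors, and up to 4 genes per list by lowest adjusted p at 3 or 8 h. The 3 genes with the highest r to each member are named too. Some others were named after their values were seen. The gene counts of 5619870 to 15355994 per library limit the precision of scarce genes such as Cxcr6.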

Additional observations from a re-analysis of the deposited data

How the results depend on the processing

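Of 48 member changes from 0 h, 19 were called, and the number was 17 by DESeq2, 20 with at least 1 CPM in 10 libraries or with length and GC trends removed, 23 with 0 h libraries pooled, 24 with a replicate block and 25 with no filter. No result reversed. All 12 calls of Cx3cl1 and Cxcl16 at 3 and 8 h held in each alternative, as did Cxcl12 at 8 h of LPS. The other Cxcl12 calls and the 1 h calls did not. For Cxcl12, leaving a library out left KO-1 and KO-2 unevenly matched between the times. Those runs cannot show whether the fall rests on that library. The cause of the other losses was not tested. With the replicate block no Cxcl12 call was lost. DESeq2 took 2 Cxcl12 calls after IL-1b, at 3 h (-0.41) and 8 h (-0.48). Without a filter, calls were gained by Cx3cl1 (0.49) and Cxcl16 (0.64) at 1 h of IL-1b, Cxcl12 at 8 h of TNF (-0.38) and Cxcl14 at 8 h (-0.53, -0.42 and -0.44 after IL-1b, TNF and LPS). Pooling the 0 h libraries called Cxcl16 at 1 h of IL-1b (0.67), Cxcl12 at 8 h of TNF (-0.41) and Cxcl14 at 8 h of IL-1b (-0.49) and LPS (-0.52). The stricter filter called Cxcl16 at 1 h of IL-1b (0.64), and removing length and GC trends Cxcl12 at 8 h of TNF (-0.42).

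The shared numbers KO-1 and KO-2 were checked for pairing. Deviations of same-numbered libraries had a median r of 0.191 in 105 group pairs, running from -0.17 to 0.504 with 73 above 0.1. The main fit did not take them as pairs. KO-1 nevertheless stood above KO-2 for Cxcl12 in 15 of 15 conditions, and below it for Cx3cl1 and Cxcl14 in 14 of 15. The main fit counts such a line difference as spread between libraries, so a test it did not call may be called with a block. With a replicate block, calls were gained by Cx3cl1 (0.49) and Cxcl16 (0.64) at 1 h of IL-1b, Cxcl12 at 8 h of TNF (-0.38) and Cxcl14 at 8 h of IL-1b (-0.52) and LPS (-0.44). The block also brought joint genotype differences in change past the threshold for Cx3cl1 (F = 7.23 for IL-1b, 7.19 for LPS), Cxcl12 (7.99 for TNF, 7.06 for LPS) and Cxcl16 (5.33 for LPS). No filter did so for Cx3cl1 (F = 9.48 for IL-1b, 9.62 for LPS) and Cxcl16 (4.14 and 5.30). The joint test was not run in DESeq2.

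Stimulus differences called numbered 1, 4 without a filter, 5 with the replicate block and 0 to 2 with a library left out. Genotype differences in change numbered 0, and 2 without a filter. At 0 h alone, the genotype difference of Cxcl16 was -0.39 and not called. By Spearman's rho, 5 of the 12 genes most like a member stayed among the top 3, and with a prior count of 0.5 Cxcl3 fell below the level set for that ranking. Leaving out 1 library moved Cxcl12 within -0.58 to -0.27 (IL-1b 3 h), -0.67 to -0.32 (IL-1b 8 h), -0.64 to -0.32 (TNF 3 h), -0.53 to -0.22 (TNF 8 h) and -0.73 to -0.48 (LPS 3 h). For Cxcl16 at 1 h the ranges were 0.79 to 1.04 (TNF) and 0.67 to 0.99 (LPS), and for Cxcl14 at 8 h of LPS -0.90 to -0.11.

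Counts over all genes moved as well, among them, under some alternatives, those of genes whose change differed between stimuli or genotypes. At 0.5 h of IL-1b 1024 genes were called, against 1576 with the replicate block, 418 with length and GC trends removed, 2690 with 0 h pooled and 584 by DESeq2. At 0.5 h of TNF and LPS, 104 and 73 became 169 and 139 with no filter and 285 and 153 with 0 h pooled. At 1 h of IL-1b, TNF and LPS, 823, 810 and 736 became 1601, 1791 and 1533 with 0 h pooled and 484, 473 and 444 by DESeq2. DESeq2 called 2047 in place of 3375 at 8 h of IL-1b, 2525 in place of 3960 at 8 h of TNF, and 2224 in place of 3456 from 3 to 8 h of TNF. Between the genotypes 5213 were called, 3331 in 0 h libraries alone and 9112 in a fit on 45 libraries.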
